A study of Mus musculus with 14 samples.

Results

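Expression of 8 genes was followed across the arrays: 4 matrix metalloproteinase genes (Mmp2, Mmp9, Mmp13 and Mmp14) and 4 genes of their tissue inhibitors (Timp1, Timp2, Timp3 and Timp4). They were found by symbol among 21893 named genes, and all 8 had a probe on the array, 9 probes in all of 30626 named probes. They were chosen by hand with intensities in view, because Mmp13 and Mmp9 were high on some KO muscle arrays. They were thus selected on the intensities of muscle arrays, and the difference between KO and WT muscle is a description for every member, with no test.

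RNA came from skeletal muscle and brain of newborn mice of the C57BL6 background, each taken at 1 day of age without treatment. The groups were 3 muscle samples of Cugbp1 KO mice and 3 of WT mice, and 4 brain samples of Cugbp1 KO mice and 4 of WT mice, each on 1 array of 1 colour. Cugbp1, now named Celf1, encodes a protein that binds GU-rich RNA and regulates splicing and the fate of mRNAs. Per the labels, the KO mice derive from BayGenomic embryonic stem cells in which a trap vector sits before the start codon of Cugbp1, injected into C57BL6 mice. The labels name no restriction of the trap to a cell type, and give neither the muscle, the brain region, the litter nor the sex. In these bulk samples, fewer cells of a type and less RNA per cell cannot be told apart.

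Intensities are given as deposited, and a level is the log2 intensity minus the 75th percentile of the array over the named probes. Arrays correlated over all genes at r = 0.968 to 0.987 within muscle and 0.986 to 0.994 within brain. Celf1, the trapped gene, had intensities of 498 to 758 in KO muscle, against 3099 to 4696 in WT muscle, and of 1637 to 2086 in KO brain, against 4854 to 6961 in WT brain. Muscle markers were higher in WT muscle for 7 of 7 genes, and neuronal markers were lower there for 4 of 5. The exception was Snap25, a protein of synaptic vesicle fusion, with means of 19462 in WT muscle and 20677 in WT brain (log2 difference 0.12, adjusted p = 0.548). The actin gene of skeletal muscle, Acta1, read 274936 to 435732 on muscle and 466 to 1178 on brain arrays, and the neuronal tubulin gene Tubb3 read 27.7 to 86.5 on muscle and 30119.6 to 35750.4 on brain arrays. Detection flags were not used here. An intensity is called near the lowest where it lay within 2-fold of the lowest value of its array, which was 2.04 to 3.51.

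Matrix metalloproteinases are zinc enzymes that cut collagens and other proteins outside the cell. They are made as inactive precursors, and TIMPs block the active enzymes. MMP13 is the main collagenase of growing mouse bone and cartilage, and MMP9, a gelatinase, is abundant in osteoclasts and in the granules of neutrophils. MMP2, the other gelatinase, is made by fibroblasts and many other cells of connective tissue. MMP14 is held in the cell membrane, where, with TIMP2 as a bridge, it activates the precursor of MMP2. TIMP1 is a secreted inhibitor whose gene responds to growth factors and inflammation, TIMP3 binds to the matrix itself, and TIMP4 is best known from heart, muscle and brain.

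Promoters of 6 of the 8 members were in the RefSeq table of the mouse assembly GRCm38.p6, with 250 bases before the gene start and 50 from it. Mmp2 and Mmp9 were not among them. The sequences of Mmp13 and Timp1 are shown because these genes, with Mmp9, were highest on the same 3 brain arrays. Letters searched on both strands were TGANTCA for AP-1, the Fos and Jun factor, ACCACA for RUNX, a factor family of bone and cartilage, and GGGCGG for the GC box of Sp factors. Capitals mark the matches, which do not overlap in either sequence. Mmp13 lies on chr9:7272264-7272563 (plus strand) and Timp1 on chrX:20869916-20870215 (plus strand).
Mmp13: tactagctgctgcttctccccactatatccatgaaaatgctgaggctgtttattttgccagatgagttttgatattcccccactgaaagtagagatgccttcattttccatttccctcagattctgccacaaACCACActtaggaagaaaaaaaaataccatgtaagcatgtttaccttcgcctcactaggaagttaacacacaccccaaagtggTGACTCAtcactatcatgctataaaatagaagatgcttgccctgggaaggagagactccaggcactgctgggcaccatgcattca
Timp1: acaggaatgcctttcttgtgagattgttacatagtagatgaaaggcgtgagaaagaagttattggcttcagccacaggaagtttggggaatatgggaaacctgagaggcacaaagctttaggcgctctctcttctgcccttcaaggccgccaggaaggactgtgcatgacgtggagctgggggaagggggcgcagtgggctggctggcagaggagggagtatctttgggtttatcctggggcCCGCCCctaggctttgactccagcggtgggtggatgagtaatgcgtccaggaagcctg
The AP-1 letters of Mmp13 begin 35 bases before the gene start, and its RUNX letters begin 118 bases before it. Timp1 held neither set of letters and had a GC box that begins 8 bases before the start. Only exact matches were searched, so sites that differ from these letters are not counted. Among the other members, Mmp14 held RUNX letters 114 bases before its start. Of 27025 mouse promoters of this length, 7.93% held the AP-1 letters, 16.9% the RUNX letters and 35.9% the GC box. These matches are a description of the sequence and not of factor binding.

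In KO muscle, Mmp13 was read well above the lowest intensities on every array, and in WT muscle on none. The intensities of Mmp13 were 677, 25.2 and 139 on KO muscle arrays 1, 2 and 3, against 2.90, 2.64 and 2.70 on WT muscle arrays 1, 2 and 3. All 3 WT values were near the lowest, so the mean log2 difference of 5.44 ± 1.14 (SE, n = 3 per genotype) has no exact size, and it was 1.89 with 50 added to each intensity. KO arrays themselves differed by 26.9-fold between the highest and the lowest. Without KO array 2 the log2 difference was 6.71, and without KO array 1 it was 4.20.

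Mmp9 followed the same order among the KO muscle arrays. Its intensities were 243, 20.7 and 191 on KO arrays 1, 2 and 3, against 5.49, 10.9 and 11.9 on WT arrays 1, 2 and 3. The log2 difference was 3.30 ± 0.97 (SE, n = 3 per genotype), 1.37 with 50 added to each intensity. KO array 2 lay close above the WT arrays, while KO arrays 1 and 3 lay far above them. Without KO array 2 the log2 difference was 4.49.

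The remaining members overlapped between KO and WT muscle. Mmp2 read 2338, 4215 and 5053 on the KO arrays, against 2103, 3786 and 5987 on the WT arrays, a log2 difference of -0.14 ± 0.43. Both genotypes covered nearly the same range, and array 1 was the lowest of each. Mmp14 read 1042, 1398 and 1151 on the KO arrays, against 791, 1017 and 1548 on the WT arrays, a log2 difference of -0.021 ± 0.30. The KO arrays lay within the WT range.

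Timp1 read 1373, 1727 and 1267 on KO muscle arrays 1, 2 and 3, against 708, 1357 and 389 on WT arrays 1, 2 and 3. WT array 2 lay among the KO arrays and the other WT arrays below all of them. Its log2 difference was 0.84 ± 0.41, which moved to 1.19 on leaving out WT array 2 and to 0.41 on leaving out WT array 3. Unlike Mmp13 and Mmp9, Timp1 was highest on KO array 2.

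Timp2 read 22039.8, 34594 and 31308 on the KO arrays, against 18141, 29568 and 21286 on the WT arrays with probe A_52_P540219, a log2 difference of 0.19 ± 0.24. Its other probe, A_65_P12392, gave 0.040 ± 0.38. Timp3 had a log2 difference of -0.17 ± 0.40, with intensities of 5118 to 10576 on KO and 5222 to 11319 on WT arrays. Timp4 read 329.8, 1831 and 919 on the KO arrays, against 685, 517 and 162 on the WT arrays, a log2 difference of 0.93 ± 0.73. The Timp4 values spread by 5.55-fold within KO and 4.22-fold within WT muscle, so the genotypes overlapped. Without WT array 3 its log2 difference was 0.32.

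Of the 8 members, 2 were higher on every KO than on every WT muscle array and 6 overlapped. Over all genes, 1.86% were higher on every KO muscle array, and since Mmp13 and Mmp9 were picked for this, nothing is read from the count. In limma, 0 of 21893 genes passed an adjusted p of 0.05 between KO and WT muscle (0%), and 341 had an unadjusted p under 0.05. The median log2 difference was 0.51 over the 8 members and -0.027 over all genes.

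**Figure D1:**
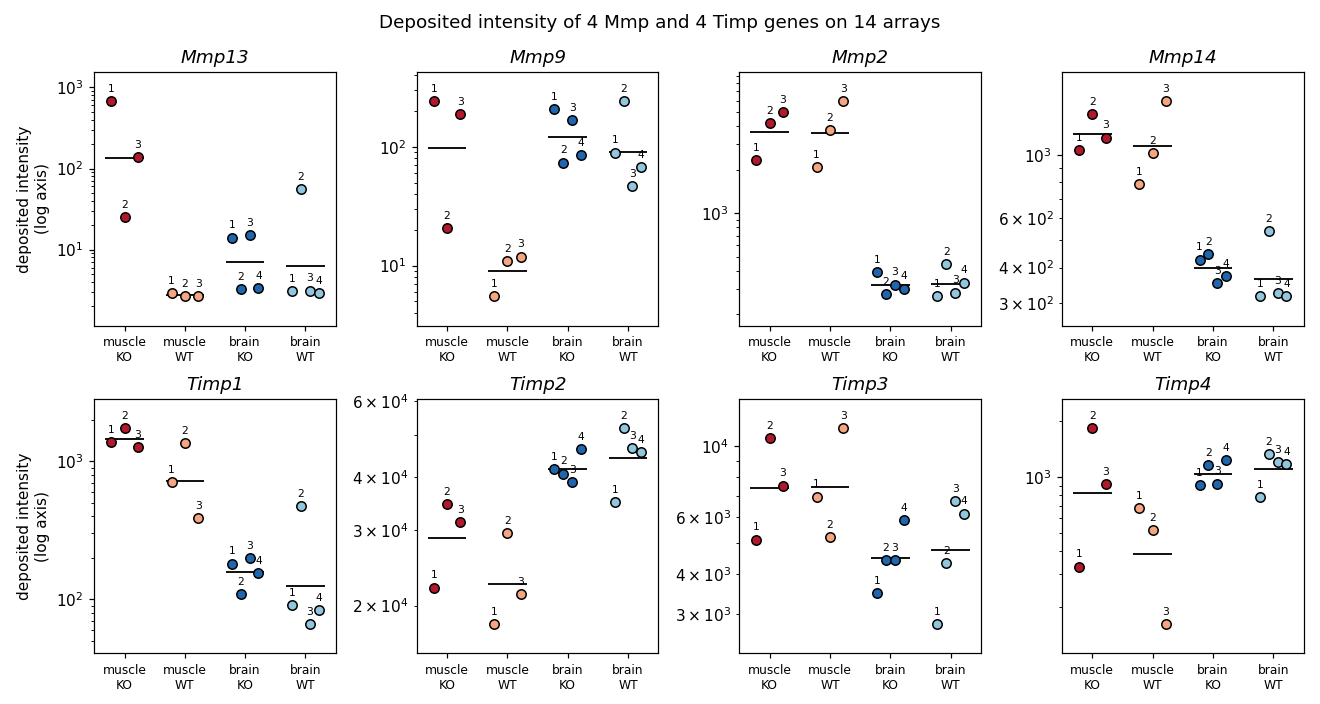
Deposited intensity (log axis) of the 8 members, by group, with 1 point per array numbered as in the labels and a bar at the geometric mean; Timp2 is shown with probe A_52_P540219. Mmp13 read 25.2 to 677 on KO and 2.64 to 2.90 on WT muscle arrays, and brain WT array 2 stood apart from the other WT brain arrays in Mmp13, Mmp9 and Timp1.

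Some marker genes of bone moved with Mmp13 and Mmp9 across the muscle arrays, and others did not. Ibsp, the bone sialoprotein of osteoblasts, read 4065, 36.6 and 2554 on KO muscle arrays 1, 2 and 3, against 11.97, 9.62 and 8.43 on the WT arrays. It had the same order as both proteases, with KO array 1 highest, KO array 3 next and KO array 2 far below. Among muscle arrays Ibsp reached 50 only on KO arrays 1 and 3, where the members had been picked as high. This match is thus partly built in. The alkaline phosphatase gene Alpl read 628, 151 and 485 on the KO arrays, against 56.7, 61.8 and 97.4 on the WT arrays, and Col10a1, the collagen of hypertrophic cartilage, read 398, 8.32 and 165 on the KO arrays, against 3.78, 6.10 and 26.9 on the WT arrays. Ibsp and Alpl on KO array 2 were still above all WT arrays, whereas Col10a1 was not. Col10a1, too, reached 50 only on KO arrays 1 and 3, so its match is partly built in as well. Col1a1, on the osteoblast list, had another order, with WT array 1 highest and KO array 3 lowest. Col2a1, on the growth cartilage list, had a log2 difference of -0.063 ± 1.43, with means of 1700 in KO and 762 in WT muscle.

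Of 9 osteoblast genes listed, 8 had a probe. Of these 8, 7 had a log2 difference above 0 in muscle (46.6% of all genes did), with a median of 2.22. Their mean level was 0.11, -3.88 and -0.68 on KO arrays 1, 2 and 3, against -4.00, -4.02 and -3.88 on WT arrays 1, 2 and 3. Their summed intensity, in multiples of the 75th percentile, was 111 to 146 in KO and 112 to 149 in WT muscle, where the type I collagen gene Col1a1 makes up most of the sum. For growth cartilage, 9 of 9 genes were measured and 8 had a difference above 0, with summed intensities of 2.96, 0.428 and 3.58 on the KO arrays and 0.678 to 1.48 on the WT arrays. The part of bone tissue in the Mmp13 and Mmp9 values was not tested.

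Osteoclasts, which resorb bone and carry MMP9, had 7 of 7 listed genes measured, 6 of them with a difference above 0 (46.6% of all genes). Atp6v0d2, a proton pump subunit of osteoclasts, read 66.6, 11.04 and 50.5 on the KO arrays, against 3.10, 3.75 and 4.31 on the WT arrays, and Dcstamp, needed for osteoclast fusion, read 85.8, 5.20 and 50.3 on the KO arrays, against 2.76, 2.45 and 2.54 on the WT arrays. Both had the order of the proteases. Both are also among the genes ranked closest to Mmp13 and Mmp9 below. Among muscle arrays each reached an intensity of 50 only on KO arrays 1 and 3, so this match is partly built in. The phosphatase gene Acp5, also active in macrophages, had WT array 1 highest, at 13833, 12324 and 13267 on the KO arrays and 17559, 4835 and 1965 on the WT arrays. Ctsk, another marker on the list, was highest on KO array 3, then KO array 2, then KO array 1 (log2 difference 0.63 ± 0.26). Ocstamp (0.12 ± 0.62) and Calcr (-0.11 ± 0.43) differed by less than their SE. The osteoclast list summed to 16.6 to 19.6 in KO and 6.62 to 23.5 in WT muscle.

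Neutrophil genes, taken as a sum, had another pattern and were highest on WT muscle array 3. S100a8, a calprotectin subunit of neutrophils, read 1005, 1538 and 3905 on KO muscle arrays 1, 2 and 3, against 1127, 686 and 8983 on the WT arrays. Its highest array was WT array 3, where Mmp9 read 11.9. The list of 9 genes, all measured, summed to 6.97 to 15.1 in KO and 3.80 to 25.3 in WT muscle, so the groups overlapped. Of the 9, 7 had a difference above 0, against 46.6% of all genes. S100a8 was among the 2 below 0 (-0.23 ± 1.02), while Lcn2 (0.87 ± 0.97) and Mpo (0.66 ± 0.67) were among those above. The part of neutrophils in the Mmp9 values of either tissue was not tested. Mmp8, the collagenase stored by neutrophils and a member of this list, read 122, 86.1 and 76.8 on the KO arrays and 71.1, 45.5 and 134 on the WT arrays.

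Genes of skin, Krt5 and Krt14 among them, were highest on KO muscle arrays 1 and 2. The keratin gene Krt5 read 926, 1454 and 86.6 on KO arrays 1, 2 and 3, against 66.2, 94.9 and 107 on the WT arrays. The 7 keratinocyte genes summed to 1.94, 2.94 and 0.660 on the KO arrays and to 0.406 to 0.733 on the WT arrays. KO array 2, the highest of these, was the lowest KO array for Mmp13 and Mmp9 and the highest for Timp1. Macrophage genes summed to 11.6, 24.0 and 15.5 on the KO arrays and 12.2 to 18.9 on the WT arrays, and were likewise highest on KO array 2.

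**Figure D2:**
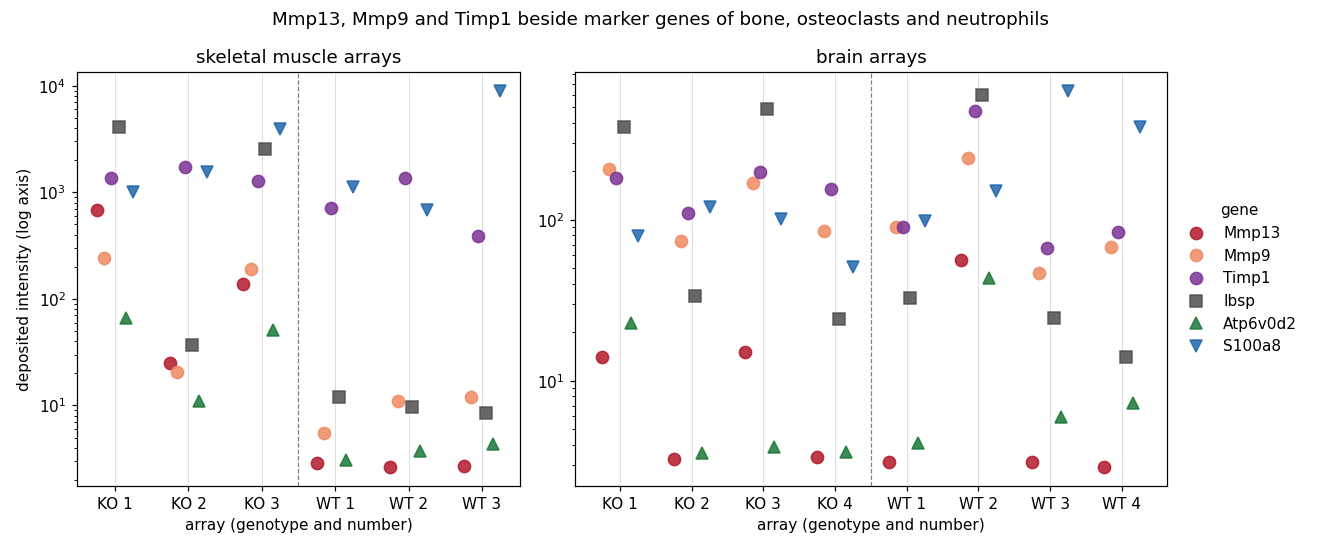
Deposited intensity (log axis) of Mmp13, Mmp9 and Timp1 beside Ibsp (osteoblasts), Atp6v0d2 (osteoclasts) and S100a8 (neutrophils) on each muscle array (left) and brain array (right), KO arrays left of the dashed line and WT arrays right of it. Mmp13, Mmp9 and Ibsp are high on KO muscle arrays 1 and 3, and in brain on KO arrays 1 and 3 and WT array 2, while S100a8 is highest on WT arrays.

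Genes with the pattern most like that of a member were ranked by Pearson's r of their levels over the 6 muscle arrays, among 13445 genes with an intensity of at least 50 on at least 2 of them. The arrays fall into 2 genotypes, so these values describe and do not test. Of the 8 genes closest to Mmp13, 5 reached 50 only on KO arrays 1 and 3, where Mmp13 and Mmp9 had been picked as high, and of the 8 closest to Mmp9, 6 did. The filter and the choice of members thus favour genes high on those arrays, and the high r is partly built in. For Mmp13 the closest were Atp6v0d2 (r = 0.98), Ppp1r14d (0.97), Dcstamp (0.97), Alpl (0.97), Ibsp (0.97), Celf2 (0.96), Omd (0.96) and Vezt (0.96). Celf2, which encodes a close relative of the trapped protein, covered a narrow range, 12756 to 14248 on KO and 9726 to 12432 on WT muscle arrays. For Mmp9 they were Atp6v0d2 (0.99), Sp7 (0.99), Vezt (0.98), Alpl (0.98), Ibsp (0.98), Dcstamp (0.98), Gapvd1 (0.98) and Bglap (0.98). Both lists shared Atp6v0d2, Alpl, Ibsp, Dcstamp and Vezt. Sp7 encodes osterix, a transcription factor of osteoblasts, and Bglap encodes osteocalcin, a protein of bone matrix. The genes closest to Timp1 in muscle included none of these. They were Tmem51, Trip12, Hnrnpm, Atp2c1, Fam149a, Copb2, Flna and Zfp709, at r of 0.98 to 1.00.

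In brain, the comparison that the choice of members did not use, none of the 8 members passed the test between KO and WT. Of all 21893 genes, 5 passed an adjusted p of 0.05 in limma (0.0228%), and 1828 had an unadjusted p under 0.05. Among the members the adjusted p ranged from 0.729 to 0.965, with 4 log2 differences above 0 and 4 below. Their median was 0.032, against 0.012 over all genes. On all 8 the KO and WT arrays overlapped; over all genes, 3.85% did not overlap.

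Mmp13 read 14.1, 3.24, 15.1 and 3.35 on KO brain arrays 1 to 4, against 3.11, 55.8, 3.12 and 2.90 on WT brain arrays 1 to 4. Apart from KO arrays 1 and 3 and WT array 2, all were near the lowest. The log2 difference was 0.12 ± 0.97 (SE, n = 4 per genotype, adjusted p = 0.965), and its 95% interval of -2.12 to 2.36 leaves room for large changes either way.

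Mmp9 was read above the lowest intensities on every brain array. It stood at 207, 73.7, 168 and 85.5 on KO brain arrays 1 to 4, against 89.6, 243, 46.8 and 67.7 on the WT arrays. The highest array was again WT array 2, followed by KO arrays 1 and 3. The log2 difference was 0.40 ± 0.48 (adjusted p = 0.766, 95% interval -0.700 to 1.495).

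Timp1 read 181, 109.7, 198 and 155 on KO brain arrays 1 to 4, against 90.6, 473, 66.7 and 83.9 on the WT arrays. All 4 KO arrays lay above 3 of the 4 WT arrays, and WT array 2 lay above all. The log2 difference was 0.32 ± 0.51 (adjusted p = 0.812, 95% interval -0.85 to 1.49). Without WT array 2 it was 0.87 ± 0.21, which did not pass either (adjusted p = 0.201; lowest and highest among alternatives, 0.201 and 0.999).

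The same 3 brain arrays, KO 1, KO 3 and WT 2, were the highest for 3 of the 8 members (Mmp13, Mmp9 and Timp1). This was so for 350 of 21845 genes with no blank value (1.60%), and since the 3 arrays were singled out on these members, it is given without a test. Of the 8 measured osteoblast genes, 5 had these arrays on top, against 1 of 7 osteoclast, 1 of 9 growth cartilage, 1 of 7 macrophage, 1 of 7 keratinocyte and 0 of 9 neutrophil genes. Ibsp read 379, 33.4, 491 and 24.3 on KO brain arrays 1 to 4, against 32.5, 599, 24.4 and 14.1 on the WT arrays. The sum of the osteoblast list was 7.49, 2.29, 6.45 and 2.36 on the KO arrays and 3.14, 11.5, 2.30 and 2.51 on the WT arrays. WT array 2 was also the highest brain array for Acp5 (6242, against 148 to 1389.6 on KO and 277 to 575 on the other WT arrays) and for the muscle actin gene Acta1 (1178, against 469 to 632 on KO and 466 to 692 on the other WT arrays). With those 3 arrays left out, a setting added after seeing the data, the log2 differences were 0.056 ± 0.15 for Mmp13, 0.21 ± 0.33 for Mmp9 and 0.65 ± 0.22 for Timp1, with 2 KO and 3 WT arrays and no member past the threshold. Since these were the highest arrays for all 3 members, a smaller spread was built in. The Mmp13 values left were all near the lowest, so its difference and SE have no exact size. The part of bone tissue in the brain values of Mmp13, Mmp9 and Timp1 was not tested.

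Neutrophil genes again went another way than Mmp9 in brain. S100a8 read 79.6, 119, 100.5 and 50.7 on KO brain arrays 1 to 4, against 98.4, 150.0, 634 and 376 on the WT arrays. Its highest arrays, WT 3 and WT 4, had 2 of the lowest values of Mmp9. All 9 neutrophil genes had a log2 difference below 0, with a median of -1.10 against 0.012 over all genes, and 0 of the 9 passed the test in either direction. Over all genes, 52.2% had a difference above 0 and 0.0228% passed.

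None of the other 5 members passed in brain either. Mmp2 read 275 to 389 on KO and 265 to 444 on WT arrays, with a log2 difference of -0.042 ± 0.11 (95% interval -0.29 to 0.20). Mmp14 read 352 to 446 on KO and 316 to 538 on WT arrays, with a log2 difference of 0.11 ± 0.15 (95% interval -0.24 to 0.45). For Timp2 it was -0.10 ± 0.10 (-0.35 to 0.14), and for Timp4 -0.094 ± 0.17 (-0.49 to 0.30). Timp3 spread the most of these, at 3484, 4427, 4422 and 5883 on KO arrays 1 to 4, against 2806, 4321, 6728 and 6158 on the WT arrays. Its highest arrays were WT 3 and WT 4, with a log2 difference of -0.10 ± 0.29 (-0.78 to 0.58). Leaving out WT arrays 3 and 4 turned it to 0.37 ± 0.24 (adjusted p = 0.993). The intervals are not adjusted for the number of genes. For Mmp2 and Timp2 they exclude a 2-fold change, and so do those of Mmp14, Timp3 and Timp4. The other probe of Timp2, A_65_P12392, was lower on every KO array (979 to 1189.6, levels of -0.12 ± 0.043) than on every WT array (1039 to 1567, levels of 0.081 ± 0.083; SD, n = 4 each) once arrays were scaled. Its log2 difference was -0.20 ± 0.084 (SE). Over all genes, 2.45% were lower on every KO brain array.

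In brain, levels of 13567 genes were ranked over the 8 arrays in the same way. Closest to Timp1 were Otud4 (r = 0.96), Emp3 (0.96), Glipr2 (0.95), Nsmce3, Pitpnb, Cpz, Lcor and Lgals1 (0.93 to 0.94). Lgals1, which encodes a galectin, read 3021 to 4162 on KO arrays and 2749 to 5543 on WT arrays, with WT array 2 the highest. Closest to Mmp14 were H2bc18 (0.98), Cbr3 (0.98), Get3, Cog8, Bad, Rab4b, Taf6l and Wnk4 (0.94 to 0.95). H2bc18 read 807 to 1641 on KO and 610.2 to 1549.9 on WT arrays, highest on KO array 2 and WT array 2.

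**Figure D3:**
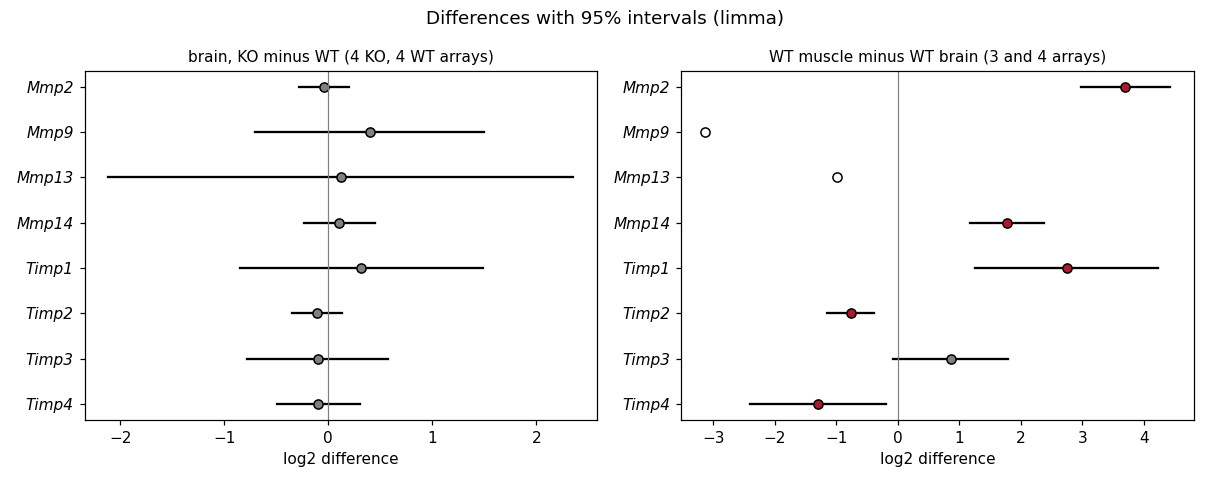
Log2 differences of the 8 members in brain, KO minus WT (left), and in WT mice, muscle minus brain (right), as points with 95% intervals from limma; red points passed an adjusted p of 0.05, grey points did not, and open points (Mmp9 and Mmp13, right) were not tested. In brain every interval includes 0; between WT tissues Mmp2 stands at 3.70.

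Between tissues of WT mice the members differed widely. In the fit without a block, WT muscle exceeded WT brain in Mmp2, Mmp14 and Timp1, was below it in Timp2 and Timp4, and did not pass for Timp3, among the 6 members tested. In the fit blocked on array number, Timp4 did not pass and Timp3 did, as higher in muscle. Over all genes, 12011 of 21893 passed (54.9%), 29.5% higher in muscle and 25.3% lower, so a difference between tissues was common. Mmp9 and Mmp13 were not tested here, because their low WT muscle values belong to the pattern they were picked for.

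Mmp2 read 2103, 3786 and 5987 on WT muscle arrays, against 265, 444, 282 and 330.3 on WT brain arrays. No array of 1 tissue came near the other. The log2 difference was 3.70 ± 0.31 (SE, n = 3 muscle and 4 brain arrays, adjusted p = 3.32e-05), a 13.0-fold higher level in muscle. For Mmp14, the activator of the MMP2 precursor, muscle read 791, 1017 and 1548, against 316, 538, 326 and 318 in brain, and the log2 difference was 1.77 ± 0.26 (adjusted p = 0.000634), a 3.42-fold higher level. Timp1 read 708, 1357 and 389 in muscle, against 90.6, 473, 66.7 and 83.9 in brain. On scaled levels WT brain array 2 still lay below every muscle array. Timp1 was higher in muscle by 2.74 ± 0.64 on the log2 scale (adjusted p = 0.00729), a 6.70-fold difference.

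The probes of Timp2 disagreed between tissues. A_52_P540219, the brighter, read 18141, 29568 and 21286 in WT muscle, against 34935, 51854, 46641 and 45661 in WT brain, and gave a log2 difference of -0.77 ± 0.17 (adjusted p = 0.00513). A_65_P12392 read 1649, 3106 and 1838 in WT muscle, against 1039, 1567, 1185 and 1149.7 in WT brain, and gave a log2 difference of 1.00 ± 0.19. With each probe, the arrays of the tissues did not overlap once scaled, but in opposite directions. With the mean of both probes the difference was 0.12 (adjusted p = 0.619; alternatives gave 0.000201 to 0.619), so the direction of Timp2 between muscle and brain depends on the probe.

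Timp3 read 6959, 5222 and 11319 in WT muscle, against 2806, 4321, 6728 and 6158 in WT brain. The tissues overlapped, and the log2 difference of 0.86 ± 0.40 did not pass (adjusted p = 0.107; alternatives gave 0.0340 to 0.303). It passed in the blocked fit, at 0.98 ± 0.24 (adjusted p = 0.0340), and without WT muscle array 2, at 1.22 (adjusted p = 0.0359). Timp4 read 685, 517 and 162 in WT muscle, against 777, 1328, 1203 and 1177 in WT brain. Every muscle array lay below every brain array, and the log2 difference was -1.30 ± 0.47 (adjusted p = 0.0484; alternatives gave 0.00914 to 0.146). Timp4 no longer passed in a fit blocked on array number (-1.28, adjusted p = 0.146), after quantile normalization (adjusted p = 0.0625) and without any 1 WT array other than muscle array 1. Without WT muscle array 3 the difference was -0.69.

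Mmp9 and Mmp13 are given as values. Mmp9 read 5.49 to 11.9 in WT muscle and 46.8 to 243 in WT brain, a log2 difference of -3.14 ± 0.49 with no overlap. The WT muscle values were only 2.00, 4.56 and 4.87 times the lowest of their arrays. With 50 added to each intensity the difference was -1.11, so its size is not exact. Mmp13 was near the lowest on all 3 WT muscle arrays and on 3 of 4 WT brain arrays.

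The 4 groups were ordered by mean level. Mmp2 and Mmp14 were high in both muscle groups and low in both brain groups, with no overlap between tissues, and the genotypes of a tissue overlapped in each. Timp2 had the reverse, brain over muscle, with the brighter probe. Timp1 had the order KO muscle, WT muscle, KO brain, WT brain, with a gap between tissues. Mmp13 had the order KO muscle, KO brain, WT brain, WT muscle, and KO muscle alone lay apart from its neighbour. For Mmp9 the order was KO brain, KO muscle, WT brain, WT muscle, at mean levels of -3.26, -3.50, -3.66 and -6.80, where the neighbours among the first 3 groups overlapped and WT muscle lay apart. Timp3 and Timp4 had overlaps between all neighbouring groups.

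Other members of the protease family were compared in the same way. Of 19 other MMP genes listed, 18 were measured. Between WT tissues, 4 passed as higher and 2 as lower in muscle, 33.3% of the list against 54.9% of all genes. Of the 18, 8 to 10 were near the lowest on WT muscle arrays and 7 to 12 on WT brain arrays. Over all probes, 22.2% to 30.4% of an array were near the lowest. A gene near the lowest in both tissues can hardly pass, so nothing is read from the lower share. Mmp24 and Mmp17, both anchored in the membrane, were the brain genes. Mmp24 averaged 2.96 in WT muscle, about the lowest intensities of an array, and 1908 in WT brain (adjusted p = 9.25e-08), and Mmp17 averaged 211 in WT muscle and 4628 in WT brain (log2 difference -4.27 ± 0.28, adjusted p = 7.65e-06). Mmp23 was higher in muscle, with means of 1155 in WT muscle and 145 in WT brain (log2 difference 3.07 ± 0.46, adjusted p = 0.000791). Between KO and WT, 0 of the 18 passed in brain and 0 in muscle. Over all genes 0.0228% passed in brain and 0% in muscle, so nothing is read from these counts. The closest in brain was Mmp17, at -0.56 ± 0.19 (adjusted p = 0.580).

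Over all genes, 29.5% passed as higher and 25.3% as lower in WT muscle than in WT brain, and the counts of the following lists are to be read against these shares. Of 20 measured ADAM and ADAMTS proteases, 13 passed as higher and 3 as lower in WT muscle than in WT brain. Adamts14, which trims procollagen, averaged 2520.4 in WT muscle and 399.9 in WT brain (log2 difference 2.80 ± 0.39, adjusted p = 0.000508). Of 18 measured activators and cell surface regulators of MMPs, 12 passed as higher and 2 as lower in muscle. Among them Plau, the urokinase plasminogen activator, stood at 4.59 ± 0.26 and Cd44, a surface receptor that docks MMP9, at 3.91 ± 0.22. Of 18 measured substrates, 11 passed as higher in muscle, among them the fibrillar collagen gene Col3a1 (5.87 ± 0.23, adjusted p = 6.23e-07), and 4 as lower, among them Bcan, the brevican proteoglycan of brain matrix (-11.5 ± 0.31, adjusted p = 1.48e-07). Of 16 measured factors that regulate MMP genes, 8 passed as higher and 1 as lower, 56.2% of the list and near the 54.9% of all genes.

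Between genotypes, none of these 4 lists had a call in brain or in muscle. Over all genes 0.0228% passed in brain and 0% in muscle, so nothing is read from this. In brain, 13 of the 16 regulators had a log2 difference below 0, while 52.2% of all genes were above 0. The median was -0.18 against 0.012 over all genes, and the AP-1 gene Jun stood at -0.73 ± 0.39 (adjusted p = 0.580). Jun read 3681 to 6931 on KO brain arrays and 4736 to 13519 on WT brain arrays, where WT arrays 3 and 4 were the highest. In muscle, 11 of the 16 were below 0 with a median of -0.19, against -0.027 over all genes, of which 46.6% were above 0. There the AP-1 gene Fos read 587, 702 and 1085 on the KO arrays, against 345, 283 and 6907 on the WT arrays, by far the highest on WT array 3. How Fos relates to Mmp13 was not tested. Sp7 had the largest difference among the regulators in muscle and read 95.4, 11.5 and 60.8 on the KO arrays and 6.18, 7.48 and 9.58 on the WT arrays. It was highest on KO arrays 1 and 3, as Mmp13 and Mmp9 were, and reached 50 only there, so this match too is partly built in.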

How the data were processed

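The deposited table held 55681 probes on 14 Agilent arrays of 1 colour (Cy3), as intensity values, not in log; per the submitters' processing notes, the authors used Agilent Feature Extraction, with version and further steps not given in the sources used here. Array 75th percentiles of named probes were 883 to 1398. Of the probes, 30626 carried 1 gene symbol, 0 several, and 25055 were unnamed. Intensities were set to log2, the 75th percentile over named probes was subtracted, and each of 21893 genes was represented by its probe with the highest mean. Depth does not apply to arrays; their number limits the precision.

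Groups were compared over all genes with limma 3.58.1 in R 4.3.3 (lmFit and eBayes, 2-sided, Benjamini-Hochberg, adjusted p under 0.05, no block), after a check on simulated data. P-values measure the spread between samples, which the labels do not tie to numbered animals. For WT muscle and WT brain, deviations of same-numbered arrays correlated at 0.12, 0.23 and 0.21 (differently numbered, -0.19 to 0.17). By the rule set here (all above 0.1) this pairs them, though WT muscle array 3 and WT brain array 4 also reached 0.17. The pairing comes from the data, since the labels do not state it. The main fit does not use it, and the calls of Timp3 and Timp4 between WT tissues change in the blocked fit. Alternatives were other scalings, an offset, a filter on dim genes, the mean of probes, 1 model for all arrays, a trend, the block and left-out arrays.

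Named genes were the 8 members, the 8 genes most like Mmp13, Mmp9 and Timp1 in muscle and Timp1 and Mmp14 in brain, and, from 15 lists, up to 4 genes per list by size of difference plus defining markers; Celf1 checked the labels. Of each list, counts are over members with a probe. Acta1, Tubb3, Atp6v0d2, Dcstamp, Mmp8, Fos and S100a8 values per array come from these lists, and some, with Jun and Sp7, were picked after their values were seen. The members, lists and tests were chosen with earlier results of these data known.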

Additional observations from a re-analysis of the deposited data

Results flagged for a closer look

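Mmp13 on brain WT array 2 stood far from the other WT brain arrays. It read 55.8 there, while arrays 1, 3 and 4 of that group read 3.11, 3.12 and 2.90. The gap to the nearest array took up 0.913 of the range of the 4 log2 levels. This was the 1 array to stand out by this measure among 18 tests of a brain group and probe, where chance gives about 1 in 20. Arrays 1, 3 and 4 were all near the lowest, which narrows their spread, so neither the measure nor this rate is exact here. WT array 2 also had the highest brain values of Mmp9, Timp1 and Ibsp. What sets it apart was not tested.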

How the results depend on the processing

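Mmp2, Mmp14 and Timp1 kept their direction and passed between WT tissues under all 15 alternatives, with log2 differences of 3.32 to 4.00, 1.49 to 1.92 and 2.28 to 3.29. Timp2 turned to 0.12 with the mean of its probes. In brain, no member passed under any alternative run; without WT arrays 3 and 4 together the differences were -0.27 for Mmp9, -0.92 for Mmp13, -0.39 for Timp1, -0.048 for Mmp14, 0.37 for Timp3 and 0.045 for Timp4, each of opposite sign to that with all arrays. In muscle, the differences of Mmp13 and Mmp9 were 1.89 and 1.37 with 50 added to each intensity, and 4.20 to 6.71 and 2.58 to 4.49 with 1 array left out.

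The count of genes past the threshold in limma in brain (5) was 3 without scaling, 3 under the filter to genes over the median level, and 2 with all 14 arrays in 1 model. It was 0 with WT arrays 3 and 4 both left out (784 had an unadjusted p under 0.05) and 0 without the 3 arrays high in Ibsp (3278). The 5 genes were 3 higher and 2 lower, against 1 and 2 without scaling and 2 and 3 after quantile normalization. With 1 array left out it was 1 to 9. It was 9 on leaving out WT array 2, 1 for WT arrays 3 and 4 and KO array 2 each, 2 for KO array 4 and 3 for KO arrays 1 and 3 each. In muscle (0) it was 1 with the offset, 1 under that filter, 9 with all arrays in 1 model and 0 to 1 with 1 array left out, the 1 being without KO array 2. Between WT tissues it was 7669 under that filter, where fewer genes were tested, and 10891 to 12209 with 1 array left out. Without scaling, the median of all genes between WT tissues was -0.17, and 0.19 with the offset, against 0.040. Causes of the other shifts were not tested.

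With the array number as a block, the brain count was 0 (1655 at unadjusted p under 0.05). Same-numbered KO and WT arrays correlated at -0.045 to 0.10 in brain and -0.084 to 0.20 in muscle, so the rule (all above 0.1) does not pair them. In muscle, numbers 1 and 3 (0.17 and 0.20) lay above every differently numbered pair (at most 0.12). What equal numbers share is not in the labels. The block changed no other call of a member than those of Timp3 and Timp4 between WT tissues. Signals near the lowest intensities limit Mmp13 in WT muscle and most brain arrays. Mmp9 in WT muscle, at 2.00 to 4.87 times the lowest, is limited as well.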

Other observations

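Among KO arrays, Mmp13 was highest on arrays 1 and 3 in both tissues, at 677 and 139 in muscle and 14.1 and 15.1 in brain, and on KO array 2 it read 25.2 in muscle and 3.24 in brain. Mmp9 and Ibsp shared this order of KO 1 and KO 3 over KO 2 in both tissues. For Mmp13, no such match was seen in WT, where array 2 read 55.8 in brain and 2.64 in muscle. The labels do not say whether a number marks 1 mouse. Over all genes, deviations of same-numbered KO muscle and KO brain arrays correlated at 0.19, 0.010 and 0.012, and those of differently numbered ones at -0.16 to 0.081. Timp1 was highest on array 2 in both WT muscle (1357) and WT brain (473).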
